A study of Homo sapiens with 9 samples.

Results

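The genes of the collagens, the laminins and the integrins were examined in HCT116 colon cancer cells that carry an inducible form of the Tazarotene-induced gene 1 (TIG1, gene symbol RARRES1). Members were chosen by symbol from the array annotation: COL followed by a digit, LAMA, LAMB or LAMC followed by a digit, and ITGA or ITGB followed by a digit or letter. Of 90 symbols with these letters, 11 were left out as binding partners, antisense or divergent transcripts or a pseudogene, and none of the 6 of these that were measured passed the test in a TIG1 line. The 79 members, out of 19775 genes in the annotation, were 43 collagens, 10 laminins and 26 integrins. Each gene was read on its brightest probe set, the one with the highest mean log2 intensity over all arrays. Several probe sets were kept for 25 members, and their signs against control were mixed in 15 of these in TIG1A cells and in 12 in TIG1B cells.

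The study set out to learn which genes change when each of the isoforms of TIG1 is switched on in colon cancer cells. The TIG1A line expresses the long isoform, the TIG1B line the short isoform, and the control line holds the empty vector. All 3 lines carry the pSwitch regulator plasmid of the GeneSwitch system, in which mifepristone turns on the inserted gene, and all, control included, received 5 nM mifepristone for 24 h before harvest by the sample labels and the methods, whereas the description of the series gives 5 micromolar overnight. RNA of 3 samples per line was hybridised to 9 arrays in all, so the p-values measure the spread between samples of a line. Each line is 1 selected clone, so isoform and clone cannot be told apart, and both TIG1 lines were set against the same 3 control arrays. In bulk RNA, fewer cells with a transcript and less of it per cell cannot be told apart.

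Collagens are triple-helical proteins of the extracellular matrix; fibrillar ones build fibres, fibril-associated ones decorate these fibres, and network-forming ones lie in basement membranes. Laminins are trimers of an alpha, a beta and a gamma chain that make up the sheet on which epithelial cells sit. Integrins are receptors of an alpha and a beta subunit that hold cells to collagens, laminins and other matrix proteins and connect them, through talin, paxillin and vinculin, to the actin cytoskeleton; in colon epithelium, subunit beta 4 pairs with alpha 6 and anchors hemidesmosomes to laminin.

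A probe set counted as measured where it reached its array's median intensity on 2 of the 3 arrays of at least 1 line. By this limit 46 members were measured, 20 collagens, 8 laminins and 18 integrins. Of these, 36 passed in all 3 lines and 10 passed in fewer, so a difference between lines partly decided whether those 10 were measured at all. The remaining 33 members included COL1A2, COL3A1, COL4A2, LAMA1, ITGA1, ITGA4, ITGB2 and ITGB7. Of the 33, 17 lay below the array median on every array, and none exceeded an intensity of 132.7 anywhere. Just outside the limit, as a ratio to the array median, were COL4A3 at 0.871, COL5A3 at 0.871 and ITGA1 at 0.900, and just inside it were ITGB3 at 1.05, COL22A1 at 1.06 and COL23A1 at 1.12.

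The induced gene followed the labels. The RARRES1 probe set 206392_s_at ranged from 58452 to 66754 on the TIG1A arrays, from 36413 to 44513 on the TIG1B arrays and from 2.90 to 5.17 on the control arrays, which is at least 876-fold higher in TIG1A cells and at least 547-fold higher in TIG1B cells than in control cells (limma adjusted p = 2.49e-07 and 3.68e-07). Array medians were 59.9 to 67.2 in TIG1A, 62.0 to 69.9 in TIG1B and 68.6 to 73.9 in control arrays. Of 10 colon epithelial markers 9 were measured, although KRT20 and VIL1 lay near the array median. Of the 9, CDH1 rose in TIG1A cells, and KRT19, an epithelial keratin, fell in both lines, by 0.66 each on the log2 scale (adjusted p = 0.0267 in TIG1A and 0.0435 in TIG1B); their part in the results was not tested. The summed intensity of 8 fibroblast markers was 113 to 286 in TIG1A, 255 to 289 in TIG1B and 171 to 427 in control arrays, and only THY1 was measured.

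In TIG1A cells 7 of the 46 measured members passed the test. The fibrillar collagen COL1A1 and the integrin subunit ITGAE rose, while the fibril-associated collagens COL12A1 and COL9A2, the laminin-binding subunits ITGA3 and ITGB4, and the secreted integrin-like protein ITGBL1 fell. In TIG1B cells 1 member passed, the laminin chain LAMB3, which fell. The test was limma over all 29977 probe sets kept, with Benjamini-Hochberg adjustment and a threshold of 0.05. The 2 members that rose in TIG1A cells are 4.35% of those measured, against 3.39% of all 13353 measured genes, and the 5 that fell are 10.9%, against 3.62%. In TIG1B cells none rose, against 0.637% of all genes, and the 1 that fell is 2.17%, against 1.21%. Without adjustment 19 members (41.3%) in TIG1A cells and 16 (34.8%) in TIG1B cells had p below 0.05, against 27.7% and 19.9% of all genes.

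The count for TIG1A rested on single arrays: it was 0 without control array 2, 1 without TIG1A array 2, 2 without TIG1A array 3, and 4 without TIG1A array 1, TIG1B array 2, TIG1B array 3 or control array 3. With each array centred on its median, 7 members passed, 4 higher and 3 lower, in place of 2 higher and 5 lower. The count for TIG1B was 0 without TIG1A array 2, TIG1B array 1, TIG1B array 3, control array 2 or control array 3, and 2 without control array 1. With the replicate number as a block the counts were 3 and 0, and with no filter on low intensities or with only the 6 arrays of a comparison both were 0.

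By a looser measure, all 3 arrays of a TIG1 line on one side of all 3 control arrays, 8 members (17.4%) were higher and 13 (28.3%) lower in TIG1A cells, against 16.3% and 17.9% of all genes. In TIG1B cells 7 members (15.2%) were higher and 13 (28.3%) lower, against 12.2% and 14.6% of all genes. Over the 46 members the median log2 difference was -0.24 for TIG1A and -0.10 for TIG1B, beside -0.03 and -0.01 over all measured genes. By family the medians in TIG1A cells were -0.01 for collagens, -0.46 for laminins and -0.19 for integrins, and in TIG1B cells -0.06, -0.05 and -0.16. Single members spread far wider than these medians, between -2.21 and 2.93 in TIG1A cells, the upper end from COL6A3, which was measured through TIG1A alone, and between -1.99 and 2.52 in TIG1B cells.

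**Figure D1:**
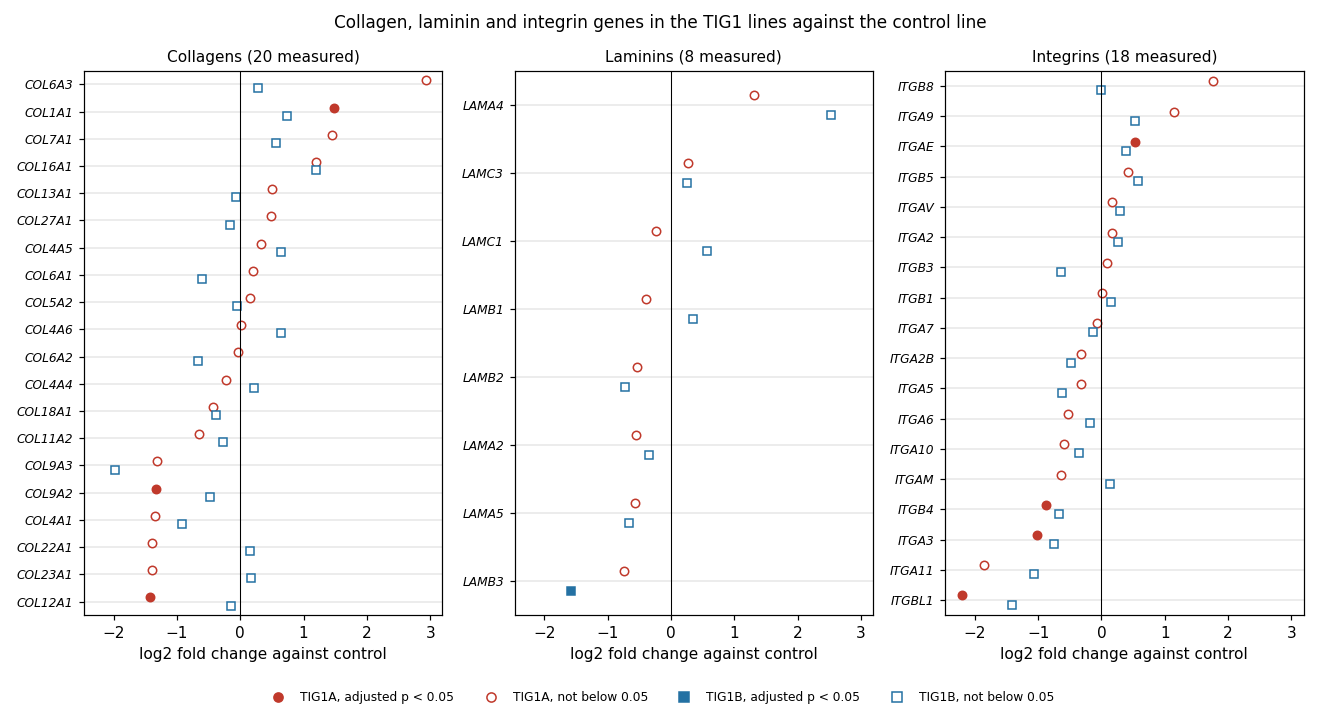
Log2 fold change against control of every measured member, on the horizontal axis, in TIG1A cells (circles) and TIG1B cells (squares), by family and ordered by the TIG1A value; filled symbols have a limma adjusted p below 0.05. In TIG1A cells 7 symbols are filled, 2 to the right of 0 and 5 to the left, and in TIG1B cells 1, LAMB3 at -1.58.

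Of the 8 members past the threshold in either line, 5 have an entry in the RefSeq promoter table of GRCh38.p14. The 250 bases before their start are shown side by side. LAMB3 passed in TIG1B cells and the others in TIG1A cells, so the 5 are not a set from 1 line. Capitals mark GC boxes, GGGCGG read on either strand, the letters to which SP1-type factors bind; the 2 GC boxes nearest to the start of COL9A2 overlap by 1 base. LAMB3 has 3 starts in the table, and the one farthest upstream is given.
COL12A1, chr6:75206054-75206303, minus strand: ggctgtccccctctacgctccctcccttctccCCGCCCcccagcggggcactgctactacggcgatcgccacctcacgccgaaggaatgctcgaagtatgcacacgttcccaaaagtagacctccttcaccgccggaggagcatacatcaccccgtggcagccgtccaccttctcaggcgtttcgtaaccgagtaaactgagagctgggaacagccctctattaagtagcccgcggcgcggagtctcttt
COL9A2, chr1:40317287-40317536, minus strand: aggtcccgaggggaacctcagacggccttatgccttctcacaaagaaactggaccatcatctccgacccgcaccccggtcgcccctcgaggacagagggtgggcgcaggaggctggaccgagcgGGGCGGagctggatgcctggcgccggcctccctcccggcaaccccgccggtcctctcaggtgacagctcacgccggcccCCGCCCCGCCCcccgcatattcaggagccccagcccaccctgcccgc
ITGBL1, chr13:101452425-101452674, plus strand: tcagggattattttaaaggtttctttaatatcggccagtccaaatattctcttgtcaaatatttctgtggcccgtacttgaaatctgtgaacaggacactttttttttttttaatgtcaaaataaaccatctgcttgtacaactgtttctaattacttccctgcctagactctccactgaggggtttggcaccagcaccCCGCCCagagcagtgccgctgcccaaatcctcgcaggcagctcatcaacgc
LAMB3, chr1:209652426-209652675, minus strand: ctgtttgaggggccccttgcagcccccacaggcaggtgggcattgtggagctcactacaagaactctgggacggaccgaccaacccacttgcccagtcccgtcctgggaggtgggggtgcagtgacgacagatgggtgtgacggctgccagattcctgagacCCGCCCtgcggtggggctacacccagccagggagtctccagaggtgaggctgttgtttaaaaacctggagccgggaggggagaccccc
ITGAE, chr17:3801189-3801438, minus strand: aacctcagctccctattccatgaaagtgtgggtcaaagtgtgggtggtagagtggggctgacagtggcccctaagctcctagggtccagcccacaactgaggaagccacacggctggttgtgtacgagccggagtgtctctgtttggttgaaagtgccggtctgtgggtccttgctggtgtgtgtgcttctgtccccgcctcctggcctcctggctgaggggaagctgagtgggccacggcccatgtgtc
The 4 promoters of genes that fell in either line hold a GC box: COL9A2 holds 3, and COL12A1, ITGBL1 and LAMB3 hold 1 each. ITGAE, which rose, holds none. COL1A1, the other gene that rose, and ITGA3 and ITGB4, which fell, have no entry in the promoter table. Rising genes are thus represented by ITGAE alone. A GC box is present in 42.6% of all 35116 RefSeq promoters. None of the 5 windows holds TATAAA, the TATA box (10.7% of all promoters), CCAAT (32.0%) or AGGTCA, the half-site of retinoic acid receptors (12.1%), each read on both strands. The windows differ in base composition, with 71.6% G and C in COL9A2, 64.0% in LAMB3, 61.2% in COL12A1, 60.0% in ITGAE and 44.0% in ITGBL1, beside a median of 58.0% over all promoters.

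Among the fibril-associated collagens, which coat larger fibres, 2 of 5 measured members fell in TIG1A cells, beside 3.62% of all measured genes. Both are among the members already counted above. COL12A1 (chromosome 6, 75084326 to 75206053) encodes collagen XII, which bridges collagen I fibres. Its intensities were 721, 649 and 551 in TIG1A cells, 2030, 1408 and 1284 in TIG1B cells, and 1323, 1805 and 2107 in control cells. All TIG1A arrays lay below all others, while the TIG1B and control arrays overlapped. COL12A1 was 2.69-fold lower in TIG1A cells than in control cells (log2 fold change -1.43, SE 0.24, adjusted p = 0.0213), and the TIG1B difference was -0.15 (adjusted p = 0.777). All 4 kept probe sets of COL12A1 were lower in TIG1A cells, 3 of them past the threshold. The call was lost without TIG1A array 2, TIG1A array 3, control array 2 or control array 3, with adjusted p between 0.0515 and 0.0789.

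COL9A2 (chromosome 1, 40300489 to 40317286) encodes a chain of collagen IX, known from cartilage. It had 100, 115 and 73.4 in TIG1A cells, 194, 178 and 143 in TIG1B cells, and 242, 236 and 234 in control cells. The 3 lines did not overlap, with TIG1A lowest and control highest. COL9A2 was 2.51-fold lower in TIG1A cells (log2 fold change -1.33, SE 0.20, adjusted p = 0.0151), and the TIG1B value was -0.48 (adjusted p = 0.252). Without TIG1A array 3 the adjusted p was 0.0501 and without control array 2 it was 0.0574. COL9A3, another chain of collagen IX, had 233, 95.0 and 167 in TIG1A cells, 121, 38.7 and 198 in TIG1B cells, and 353, 355 and 462 in control cells. Every TIG1 array lay below every control array, yet the log2 differences of -1.32 in TIG1A cells and -1.99 in TIG1B cells missed the threshold (adjusted p = 0.208 and 0.133).

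Of the fibrillar collagens 4 of 11 were measured, and COL1A1 rose. COL1A1 (chromosome 17, 50184101 to 50201631) encodes the main chain of collagen I, the chief protein of connective tissue fibres. On its brightest probe set, 1556499_s_at, the intensities were 1578, 1312 and 1644 in TIG1A cells, 908, 905 and 890 in TIG1B cells, and 774, 476 and 426 in control cells. The lines did not overlap, TIG1A being highest. COL1A1 was 2.79-fold higher in TIG1A cells (log2 fold change 1.48, SE 0.23, adjusted p = 0.0169), and 0.74 higher on the log2 scale in TIG1B cells (adjusted p = 0.147). The study picked this probe set on the same arrays, so it is not independent evidence.

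The other kept probe sets of COL1A1 did not share this direction. Probe set 202310_s_at had 189, 190 and 320 in TIG1A cells and 339, 169 and 263 in control cells, a log2 difference of -0.13 (adjusted p = 0.832), and 217430_x_at had 287, 246 and 303 in TIG1A cells and 366, 384 and 519 in control cells, a difference of -0.59 (adjusted p = 0.151). With the mean over its 3 kept probe sets, COL1A1 had a log2 fold change of 0.25 (adjusted p = 0.422), while over all alternatives its adjusted p ran between 0.000813 and 0.422. The call was also lost without TIG1A array 2, TIG1A array 3 or control array 2, with adjusted p between 0.0530 and 0.0654. COL1A2, the other chain of collagen I, was not measured: 67.1, 38.3 and 44.8 in TIG1A cells, 40.7, 31.3 and 44.2 in TIG1B cells and 8.10, 13.0 and 9.47 in control cells. COL11A2, COL27A1 and COL5A2, the other measured fibrillar collagens, ranged in log2 fold change from -0.65 to 0.49 in TIG1A cells and from -0.27 to -0.05 in TIG1B cells, with no call on their brightest probe sets. On a second probe set, 213870_at, COL11A2 had 51.1, 61.2 and 60.6 in TIG1B cells and 178, 152 and 114 in control cells, a fall of at least 2.24-fold (adjusted p = 0.0400). COL27A1 stood at 0.49 in TIG1A cells on its brightest probe set and at -0.96 and -1.63 on its other 2 kept ones, none of them past the threshold.

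**Figure D2:**
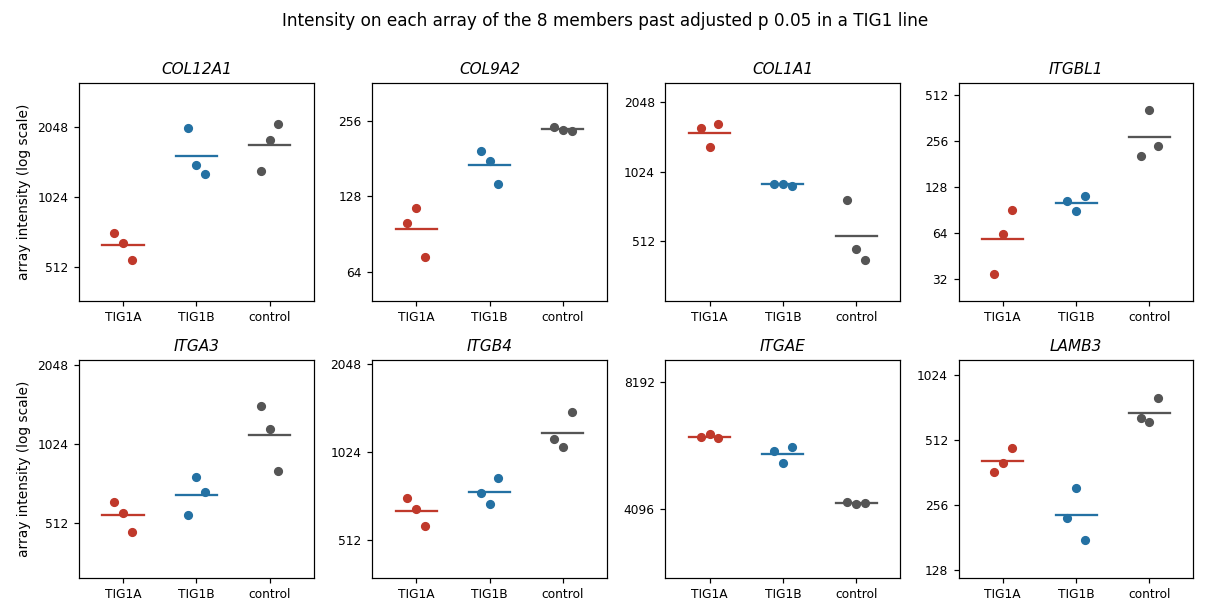
Array intensity (vertical axes, log scale, 1 panel per gene) of the 8 members past adjusted p 0.05 in a TIG1 line; points are the 3 arrays of each line and bars their geometric means. COL12A1 is low only on the TIG1A arrays (551 to 721), ITGAE lies between 6032 and 6164 on the TIG1A arrays and between 4219 and 4260 on the control arrays, and LAMB3 is lowest on the TIG1B arrays (177 to 308).

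The beaded filament collagen VI is built of chains from COL6A1, COL6A2 and COL6A3. COL6A1 had 1627, 1551 and 1856 in TIG1A cells, 883, 1047 and 954 in TIG1B cells, and 1568, 1183 and 1650 in control cells. It was the collagen of smallest p in TIG1B cells, with every array below the control arrays, at a log2 difference of -0.60 (95% interval -0.99 to -0.21, adjusted p = 0.123), and 0.20 in TIG1A cells (adjusted p = 0.488). COL6A2 had 1060, 722 and 833 in TIG1A cells, 563, 547 and 556 in TIG1B cells, and 878, 671 and 1177 in control cells, which gave -0.67 in TIG1B cells (adjusted p = 0.179) and -0.04 in TIG1A cells (adjusted p = 0.932). On its other kept probe set, 213290_at, both lines overlapped the control line. The log2 differences there were -0.10 in TIG1B cells and 0.34 in TIG1A cells (adjusted p = 0.833 and 0.332). COL6A1 and COL6A2 lie 93064 bases apart on chromosome 21.

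COL6A3 had 268, 271 and 312 in TIG1A cells, 99.3, 58.7 and 15.7 in TIG1B cells, and 78.9, 47.1 and 13.7 in control cells. The TIG1A arrays lay above all others, and COL6A3 passed the limit for being measured through TIG1A alone. Of the control arrays, 1 of 3 reached its array median, so the log2 fold change of 2.93 in TIG1A cells (adjusted p = 0.0679) is set against values mostly at background. In TIG1B cells it was 0.28 (adjusted p = 0.878).

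Of the basement membrane collagen IV genes 4 of 6 were measured and none passed. COL4A1, a chain found in nearly all basement membranes, had 42.9, 28.3 and 26.1 in TIG1A cells, 22.8, 59.0 and 56.4 in TIG1B cells, and 65.5, 86.5 and 91.0 in control cells, below the array median on all TIG1 arrays. Control cells were at least 1.25-fold above TIG1A cells and at least 1.24-fold above TIG1B cells (adjusted p = 0.0813 and 0.258). COL4A1 was measured through the control line alone, so the filter favoured this direction. COL4A5 and COL4A6, chains that lie head to head on the X chromosome with 380 bases between them, had log2 differences of 0.32 and 0.01 in TIG1A cells and of 0.65 and 0.64 in TIG1B cells (adjusted p from 0.290 to 0.983). COL7A1, which forms the anchoring fibrils beneath epithelia, gave opposite answers on its 2 probe sets. On the brighter one, 204136_at, it had 234, 109 and 139 in TIG1A cells and 62.3, 62.5 and 44.7 in control cells, at least 2.13-fold higher in TIG1A cells (adjusted p = 0.0692). On 217312_s_at it had 11.8, 20.9 and 32.0 in TIG1A cells and 70.3, 161 and 119 in control cells, which puts TIG1A cells at least 1.73-fold lower (adjusted p = 0.0298). Probe set 204136_at was kept through the TIG1 lines alone and 217312_s_at through the control line alone. Each direction was thus the one that the filter favoured.

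**Figure D3:**
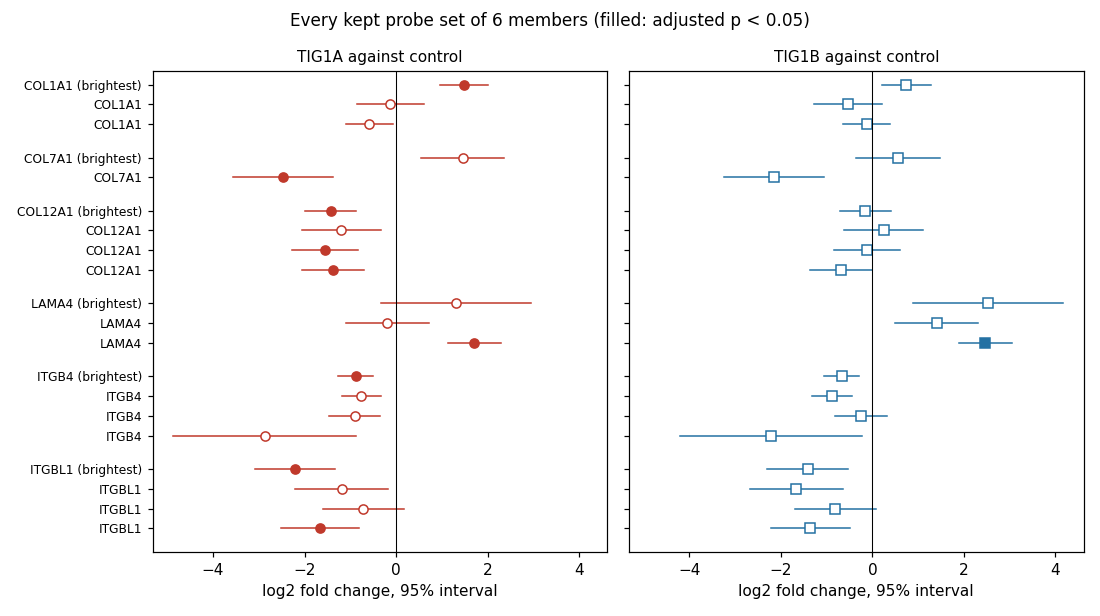
Fitted log2 fold change (horizontal axis) with its 95% interval on every kept probe set of 6 members, in TIG1A cells (left) and TIG1B cells (right) against control; filled symbols have adjusted p below 0.05. The 4 probe sets each of COL12A1, ITGB4 and ITGBL1 lie left of 0 in TIG1A cells, whereas those of COL1A1 and COL7A1 lie on both sides. Probe sets 230704_s_at of ITGB4, 231993_at of ITGBL1 and 217312_s_at of COL7A1 were kept through the control line alone. Probe sets 204136_at of COL7A1 and 210990_s_at of LAMA4 were kept through the TIG1 lines alone.

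Of the laminins 8 of 10 were measured, and LAMB3 passed the test. LAMB3 (chromosome 1, 209614870 to 209652425) encodes the beta 3 chain of the epithelial laminin beneath hemidesmosomes. It had 366, 400 and 473 in TIG1A cells, 223, 308 and 177 in TIG1B cells, and 647, 625 and 804 in control cells. No line overlapped another, TIG1B being lowest. LAMB3 was 2.99-fold lower in TIG1B cells than in control cells (log2 fold change -1.58, SE 0.23, adjusted p = 0.0263), and -0.74 on the log2 scale in TIG1A cells (adjusted p = 0.0936). The TIG1B call was lost without TIG1A array 2, TIG1B array 1, TIG1B array 3, control array 2 or control array 3, with adjusted p between 0.0585 and 0.0832.

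The other laminin chains missed the threshold on their brightest probe sets. LAMA5, the alpha 5 chain of most adult basement membranes, had 622, 883 and 968 in TIG1A cells, 831, 926 and 565 in TIG1B cells, and 1131, 1162 and 1313 in control cells. All TIG1 arrays lay below all control arrays, with log2 differences of -0.57 in TIG1A cells and -0.66 in TIG1B cells (adjusted p = 0.190 and 0.197). LAMB1, the beta 1 chain, had 729, 598 and 807 in TIG1A cells, 995, 1289 and 1293 in TIG1B cells, and 1376, 666 and 868 in control cells, and both lines overlapped the control line (log2 differences -0.39 and 0.35). LAMC1, the gamma 1 chain shared by most laminins, had 928, 1097 and 1250 in TIG1A cells, 1247, 2433 and 2285 in TIG1B cells, and 1542, 1500 and 904 in control cells, again overlapping (-0.24 and 0.58). On the second kept probe set of each gene all TIG1A arrays lay below all control arrays, at -0.77 for LAMB1 and -0.89 for LAMC1 (adjusted p = 0.0824 and 0.0639), while the TIG1B arrays overlapped them (-0.02 and -0.18).

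LAMA4, the alpha 4 chain known from vessel walls and muscle, depended on the probe set. On the brightest one it had 153, 171 and 119 in TIG1A cells, 348, 336 and 329 in TIG1B cells, and 148, 86.6 and 15.9 in control cells. The TIG1B arrays lay above all others, but the control arrays spread so widely that the log2 difference of 2.52 missed the threshold (adjusted p = 0.121), as did that of 1.31 in TIG1A cells (adjusted p = 0.292). Probe set 210990_s_at had 116, 74.8 and 135 in TIG1A cells, 162, 157 and 225 in TIG1B cells, and 28.7, 34.5 and 34.1 in control cells. On it LAMA4 rose in both lines: TIG1A cells stood at least 1.47-fold above control (adjusted p = 0.0148), and TIG1B cells at least 2.49-fold (adjusted p = 0.0116). All control arrays lay below their medians on this probe set. It was therefore kept through the TIG1 lines alone, and the filter favoured a rise. The endothelial markers, 4 genes with only PECAM1 measured, summed to 142 to 192 in TIG1A, 125 to 202 in TIG1B and 206 to 283 in control arrays, and their part in the LAMA4 values was not tested.

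All 3 laminin-binding alpha subunits were measured. ITGA3 (chromosome 17, 50056110 to 50090481) encodes alpha 3, which with beta 1 binds epithelial laminins. It had 614, 560 and 473 in TIG1A cells, 549, 768 and 669 in TIG1B cells, and 1423, 1165 and 807 in control cells. All TIG1 arrays lay below all control arrays. ITGA3 was 2.02-fold lower in TIG1A cells (log2 fold change -1.01, SE 0.24, adjusted p = 0.0497), and -0.75 on the log2 scale in TIG1B cells (adjusted p = 0.155). The TIG1A call stood just inside the threshold and was lost under 14 of 19 alternatives, among them quantile normalization (0.0517), median centring (0.107) and the removal of any array but control array 3. ITGA3 lies 93620 bases from COL1A1, which moved the other way in the same cells on its brightest probe set, but not on its other kept probe sets.

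ITGA6, which pairs with beta 4 in hemidesmosomes, had 953, 907 and 771 in TIG1A cells, 1235, 1107 and 993 in TIG1B cells, and 1554, 1125 and 1143 in control cells, at -0.53 in TIG1A cells without overlap and -0.19 in TIG1B cells (adjusted p = 0.119 and 0.617). ITGA7, the muscle laminin receptor, had overlapping values on its brightest probe set (-0.07 and -0.13). On its other kept probe set, 216331_at, TIG1A cells overlapped control cells (-0.21, adjusted p = 0.872). There all TIG1B arrays lay below all control arrays (-1.64, adjusted p = 0.249). Of the collagen-binding subunits, ITGA2, the alpha subunit through which epithelial cells bind collagen I, had 3554, 3361 and 2889 in TIG1A cells, 3984, 3531 and 3043 in TIG1B cells, and 2486, 2755 and 3610 in control cells, and overlapped throughout (log2 differences 0.16 and 0.26, and -0.34 and -0.15 on its other kept probe set).

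ITGAE (chromosome 17, 3714628 to 3801188) encodes alpha E, known from intraepithelial lymphocytes, where it pairs with beta 7 and binds E-cadherin. Its intensities were 6068, 6164 and 6032 in TIG1A cells, 5622, 5271 and 5758 in TIG1B cells, and 4260, 4219 and 4227 in control cells. Arrays of a line agreed closely and no line overlapped another. ITGAE was 1.44-fold higher in TIG1A cells (log2 fold change 0.52, SE 0.11, adjusted p = 0.0380), and 0.39 higher on the log2 scale in TIG1B cells (adjusted p = 0.127). The call was lost without any one of the 3 TIG1A arrays, the 3 TIG1B arrays, control array 2 or control array 3, with adjusted p between 0.0539 and 0.122. The partner ITGB7 was not measured (18.6, 23.2 and 9.10 in TIG1A cells, 6.93, 5.81 and 4.59 in TIG1B cells, 74.4, 15.9 and 20.4 in control cells). The 4 leukocyte markers on the array, of which only CD3E was measured, summed to 56.0 to 68.6 in TIG1A, 93.2 to 210 in TIG1B and 122 to 190 in control arrays. CDH1, which encodes E-cadherin, rose in TIG1A cells, with 6961, 6023 and 6097 in TIG1A cells, 4790, 4890 and 4983 in TIG1B cells and 4806, 4041 and 3850 in control cells (log2 fold change 0.59, adjusted p = 0.0481 in TIG1A cells).

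Of the beta subunits 5 of 7 were measured. ITGB4 (chromosome 17, 75721459 to 75757818) encodes beta 4, the hemidesmosome subunit. It had 716, 657 and 572 in TIG1A cells, 742, 681 and 833 in TIG1B cells, and 1133, 1062 and 1402 in control cells. Every TIG1 array lay below every control array. ITGB4 was 1.84-fold lower in TIG1A cells (log2 fold change -0.88, SE 0.17, adjusted p = 0.0280). In TIG1B cells, where it was the integrin of smallest p, the value was -0.67 (adjusted p = 0.0911). All 4 kept probe sets of ITGB4 had a negative log2 difference in both lines. Of these, 230704_s_at was kept through the control line alone, so the filter favoured a fall on it. In TIG1B cells 230704_s_at and 211905_s_at overlapped the control line. The TIG1A call was lost with median centring (0.0592) and without any of the 3 TIG1A arrays, TIG1B array 2, TIG1B array 3, control array 2 or control array 3, with adjusted p between 0.0515 and 0.0937.

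ITGB1, the beta subunit shared by most matrix receptors, had 17406, 17083 and 16686 in TIG1A cells, 18948, 20463 and 17494 in TIG1B cells, and 17945, 16785 and 16264 in control cells. Each TIG1 line overlapped the control line, with a log2 difference of 0.01 in TIG1A cells (95% interval -0.28 to 0.29) and 0.16 in TIG1B cells (-0.13 to 0.44). ITGB5, which pairs with alpha V to bind vitronectin, had 2371, 2379 and 2301 in TIG1A cells, 2856, 2506 and 2544 in TIG1B cells, and 2003, 1418 and 1927 in control cells. Both TIG1 lines lay above the control line, at 0.42 and 0.58 on the log2 scale (adjusted p = 0.163 and 0.121), while on its other 2 kept probe sets they overlapped it.

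ITGB8, which with alpha V frees latent TGF-beta, had 280, 760 and 425 in TIG1A cells, 102, 123 and 181 in TIG1B cells, and 164, 80.1 and 176 in control cells. The TIG1A arrays lay above all others but spread widely, and the log2 fold change of 1.76 missed the threshold (adjusted p = 0.0590); in TIG1B cells it was -0.01. ITGB8 lies on the short arm of chromosome 7, where its 20 nearest measured genes, TSPAN13 to GPNMB, had a median log2 difference of 0.06 in TIG1A cells and -0.53 in TIG1B cells. On its other kept probe sets ITGB8 gave 0.54 and -0.22 in TIG1A cells, neither past the threshold. On 205816_at, the one at 0.54, all TIG1B arrays lay below their medians and below all control arrays, at least 1.23-fold lower (adjusted p = 0.147). On the long arm of chromosome 8, COL22A1 was measured at 6.72, 99.0 and 14.2 in TIG1A cells, 59.4, 87.8 and 45.6 in TIG1B cells and 109, 19.9 and 78.7 in control cells, with no order between lines. COL13A1, on the long arm of chromosome 10, had 383, 482 and 411 in TIG1A cells, 161, 399 and 369 in TIG1B cells and 834, 207 and 157 in control cells, likewise overlapping.

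ITGBL1 (chromosome 13, 101452675 to 101720856) encodes a secreted protein with repeats like those in beta subunits; it is not a receptor subunit. It had 34.9, 63.5 and 90.6 in TIG1A cells, 104, 90.3 and 112 in TIG1B cells, and 204, 410 and 238 in control cells. All TIG1 arrays lay below all control arrays. ITGBL1 was 4.63-fold lower in TIG1A cells (log2 fold change -2.21, SE 0.38, adjusted p = 0.0221), the lowest log2 value of all members, and -1.42 on the log2 scale in TIG1B cells (adjusted p = 0.111). All 4 kept probe sets were lower in both lines. Of these, 231993_at passed in TIG1A cells as well, at least 1.70-fold lower (adjusted p = 0.0434). However, 231993_at was kept through the control line alone, so the filter favoured a fall on it. Without TIG1A array 2 and without control array 2 the adjusted p of the brightest probe set was 0.0699 and 0.0707.

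**Figure D4:**
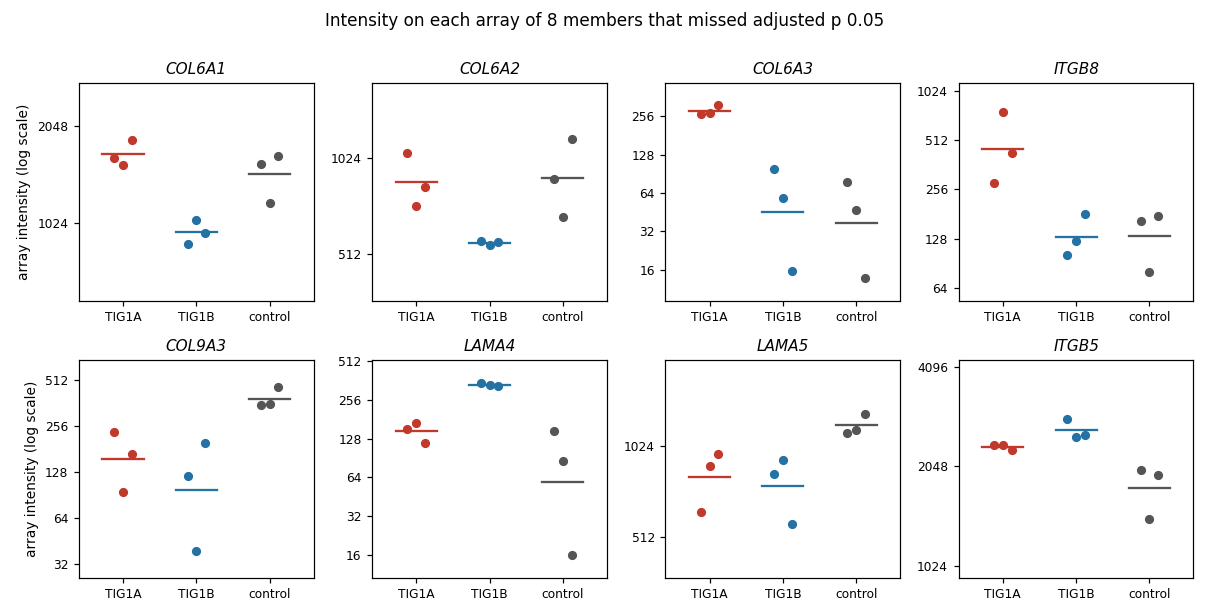
Array intensity (vertical axes, log scale, 1 panel per gene) of 8 members that missed adjusted p 0.05 in both lines on their brightest probe set; points are the 3 arrays of each line and bars their geometric means. COL6A3 lies between 268 and 312 on the TIG1A arrays and at 99.3 or lower on all others, and LAMA4 lies between 329 and 348 on the TIG1B arrays while its control arrays run from 15.9 to 148.

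Set against each other, TIG1A and TIG1B cells differed in no member at adjusted p 0.05, against 0.359% of all genes higher and 0.225% lower, while 13 members (28.3%) had an unadjusted p below 0.05 by limma, against 15.0% of all genes. An offset of 50 called 2 members, trend and robust moderation 3 and a filter at the 75th percentile 4. The smallest p among collagens was that of COL12A1, at a log2 difference of -1.28 in TIG1A minus TIG1B (adjusted p = 0.0934), among integrins ITGB8 at 1.77 (adjusted p = 0.161), and among laminins LAMB3 at 0.84 (adjusted p = 0.191). The 95% intervals were -1.84 to -0.72 for COL12A1, 0.74 to 2.80 for ITGB8 and 0.31 to 1.36 for LAMB3. A gene past the threshold in a single line was therefore not shown to differ between the lines.

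Genes that work with the members were counted in 7 lists. For comparison, 3.39% of all measured genes rose and 3.62% fell in TIG1A cells, and 0.637% rose and 1.21% fell in TIG1B cells. Of the integrin adhesion core, the proteins that tie integrins to actin and signal from them, 34 of 40 listed genes were measured, and 6 fell in TIG1A cells and 5 in TIG1B cells, with none rising. The median log2 difference over this list was -0.30 for TIG1A and -0.16 for TIG1B, beside -0.03 and -0.01 over all measured genes. ZYX, encoding zyxin of focal adhesions, had 898, 1008 and 759 in TIG1A cells, 1001, 1112 and 1358 in TIG1B cells, and 2611, 2695 and 3332 in control cells. It fell in both lines, by 1.70 for TIG1A and 1.32 for TIG1B on the log2 scale (adjusted p = 0.00807 and 0.0234). PXN, encoding the scaffold paxillin, had 860, 536 and 890 in TIG1A cells, 719, 529 and 626 in TIG1B cells, and 2024, 2020 and 1742 in control cells (-1.37 and -1.63, adjusted p = 0.0199 and 0.0232).

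TLN1, encoding talin, which binds the integrin beta tail, had 267, 340 and 249 in TIG1A cells, 143, 230 and 304 in TIG1B cells, and 734, 780 and 1101 in control cells. It was 3.03-fold lower in TIG1A cells and 3.99-fold lower in TIG1B cells (adjusted p = 0.0280 and 0.0293). VCL, encoding vinculin, fell in TIG1A cells, with 2271, 2254 and 2360 there, 3671, 3597 and 3385 in TIG1B cells, and 4148, 4026 and 3840 in control cells (-0.80, adjusted p = 0.0144, and -0.17, adjusted p = 0.459). ACTN4, an actin crosslinker, passed in both lines, PARVB in TIG1A cells and TLN2 in TIG1B cells. The count of 6 in TIG1A cells was 1 without TIG1A array 2, TIG1A array 3 or control array 2, 3 without TIG1B array 2 and 3 with median centring. The count of 5 in TIG1B cells was 0 without TIG1B array 1, TIG1B array 2 or control array 2, 1 without control array 3, 2 without TIG1A array 2, TIG1A array 3 or TIG1B array 3, 3 without TIG1A array 1, 2 with median centring and 0 with the replicate block.

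Of 16 hemidesmosome and laminin receptor genes 14 were measured, of which 3 fell in TIG1A cells and 1 in TIG1B cells. Over all measured genes 3.62% and 1.21% fell. CD151, the tetraspanin that binds laminin-binding integrins, had 1124, 956 and 946 in TIG1A cells, 1269, 1230 and 1124 in TIG1B cells, and 1439, 2163 and 1974 in control cells, and fell in TIG1A cells (-0.87, adjusted p = 0.0363). SDC4, a syndecan co-receptor of focal adhesions, had 1563, 1929 and 1808 in TIG1A cells, 2555, 3132 and 2824 in TIG1B cells, and 4946, 3743 and 3916 in control cells, and fell in TIG1A cells (-1.24, adjusted p = 0.0124). CD81, another tetraspanin, fell in both lines, by 0.84 in TIG1A cells and 0.89 in TIG1B cells on the log2 scale (adjusted p = 0.0255 and 0.0380). These counts of 3 in TIG1A cells and 1 in TIG1B cells dropped to 0 in TIG1A cells without TIG1A array 3, to 1 without TIG1A array 1, TIG1A array 2, TIG1B array 2, control array 2 or control array 3, and with median centring to 1 in TIG1A cells and 0 in TIG1B cells. In TIG1B cells the removal of any array gave 0, except control array 1, which gave 2.

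**Figure D5:**
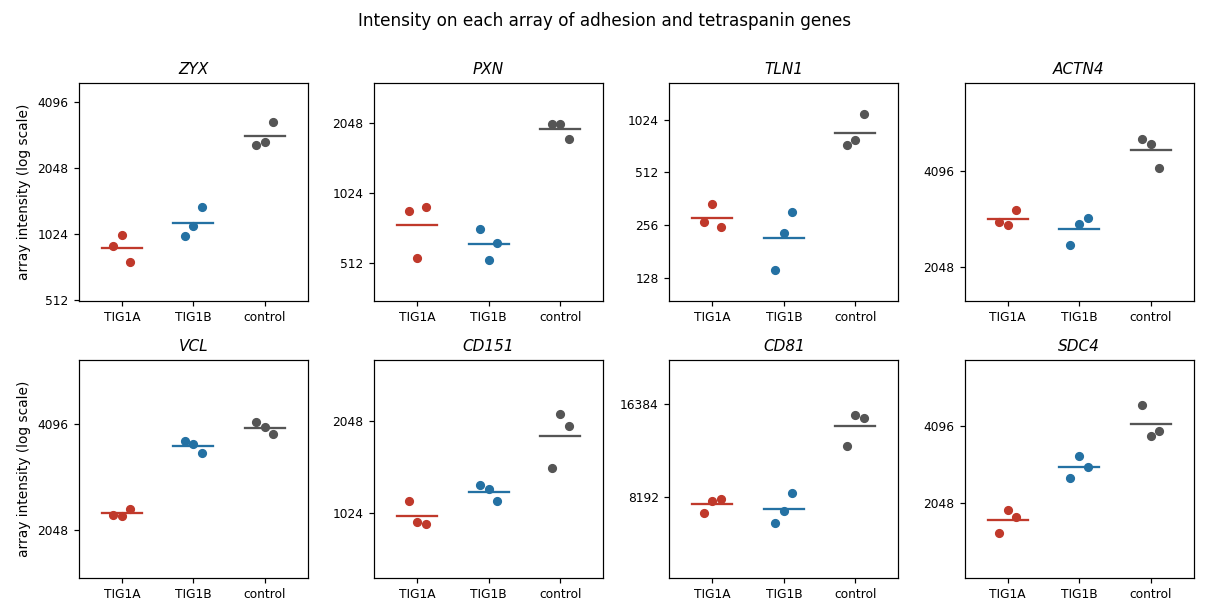
Array intensity (vertical axes, log scale, 1 panel per gene) of 5 adhesion core genes and 3 receptor genes; points are the 3 arrays of each line and bars their geometric means. ZYX lies between 759 and 1008 in TIG1A cells, 1001 and 1358 in TIG1B cells and 2611 and 3332 in control cells, while VCL is low in TIG1A cells (2254 to 2360) and 3385 or higher elsewhere.

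Of 24 measured collagen-making genes, PLOD3, a lysyl hydroxylase of collagen, fell in TIG1A cells, with 1226, 1362 and 1285 in TIG1A cells, 1472, 1328 and 1322 in TIG1B cells and 1859, 2483 and 3120 in control cells (-0.92 for TIG1A, adjusted p = 0.0376, and -0.83 for TIG1B, adjusted p = 0.0828). None of 10 basement membrane partners and none of 5 other collagen receptors passed in either line. Among 11 other integrin ligands CCN1, a matricellular protein, and TGFB1, whose latent form binds alpha V integrins, fell in TIG1A cells (-1.67 and -0.70, adjusted p = 0.0308 and 0.0411) and had -0.36 and -0.73 in TIG1B cells (adjusted p = 0.588 and 0.0619). Among 22 matrix proteases and inhibitors TIMP3 and SERPINE2, both inhibitors, rose in TIG1A cells (2.18 and 0.78, adjusted p = 0.0490 and 0.0406), and ST14, the epithelial protease matriptase, fell (-1.19, adjusted p = 0.0146). No gene of these 5 lists passed in TIG1B cells. Over all measured genes 3.39% rose and 3.62% fell in TIG1A cells, and 0.637% rose and 1.21% fell in TIG1B cells.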

How the data were processed

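RNA of 9 samples, 3 per line, was hybridised by the authors to Affymetrix U133 Plus 2.0 arrays. The deposited values are linear intensities, which the authors scaled to a common mean per array in the GeneChip Operating System (GCOS); detection calls were not used here. The trimmed mean over probe sets was 500.07 to 500.08 on every array. Intensities were floored at 1, log2-transformed and fitted with limma 3.58.1 in R 4.3.3, with 1 mean per line over all 9 arrays; this replaces the one-way ANOVA and the plain two-group test of the methods, which served as alternatives. Of 54675 probe sets, 62 array controls were dropped and the 29977 at or above the array median on 2 of 3 arrays of a line were kept. Benjamini-Hochberg adjustment ran over all of them. The number of arrays limits the precision. No pair of arrays held identical values.

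Gene names came from the platform annotation (41097 probe sets with 1 symbol, 1801 with several and 11777 with none, of which only the first were named), and 41043 of them were updated by gene number to GRCh38.p14. A line whose 3 arrays all lay below their medians gave only a bound, "at least N-fold", against the array medians. Named were members past adjusted p 0.05, the member of smallest p per comparison and family, the 3 brightest of each family, COL1A1, members in regions of chromosomes 7, 8, 10 and 11, and up to 4 genes per companion list. COL4A1, COL4A5, COL4A6, COL5A2, COL6A2, COL6A3, COL7A1, COL9A3, COL11A2, COL27A1, ITGA6, ITGA7, ITGB5, LAMA4, KRT19 and the genes that were not measured were named after their values were seen. The members and lists were chosen with earlier results of these data known. The fit was tested on simulated data. The alternatives covered scaling, offset, filter, arrays in the fit, replicate block, moderation and probe set summary.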

Additional observations from a re-analysis of the deposited data

How the results depend on the processing

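The number of members past adjusted p 0.05 was 7 in TIG1A cells, 1 in TIG1B cells and 0 between the TIG1 lines. It moved to 0 and 0 against control with no filter or with the 6 arrays of a comparison alone; to 3 for TIG1B and 2 between the lines with an offset of 50; to 7 for TIG1B and 4 between the lines with a filter at the 75th percentile; to 7 for TIG1B and 3 between the lines with trend and robust moderation; and to 4 for TIG1B with probe sets of each gene averaged. Leaving out 1 array at a time gave 0 to 8 members for TIG1A, 0 to 2 for TIG1B and 0 between the lines. Leaving out both TIG1 arrays numbered 1, an alternative chosen after seeing the data, gave 1 for TIG1A and 0 for TIG1B. The methods' two-group test gave 17, 14 and 13 members unadjusted and 1, 0 and 0 adjusted, and the one-way ANOVA over the 3 lines gave 19 unadjusted and 6 adjusted. The causes were not tested.

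With the replicate block the counts were 3, 0 and 0. The sample titles do not say whether arrays of the same number were handled together. The correlations of their deviations from the line means ran from -0.04 to 0.19, and only that of the TIG1A and TIG1B arrays numbered 1 exceeded 0.1. Between TIG1A and TIG1B arrays of the same number they were 0.19, 0.05 and 0.06. The 8 called log2 fold changes kept their sign under every alternative that gave a value; the filter at the 75th percentile gave none for COL9A2 and ITGBL1. Median centring shifted the median over all kept probe sets to 0.12 in TIG1A and TIG1B cells, against -0.04 and -0.03 without it, and left COL1A1, ITGAE, COL12A1, COL9A2, ITGBL1 and LAMB3 past the threshold. Signal near the array median limits ITGBL1, COL9A2, COL6A3 and the 10 members measured in fewer than 3 lines. Over the same alternatives the adhesion core counts ran from 0 to 10 in TIG1A cells and from 0 to 8 in TIG1B cells.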
